A study of Mus musculus with 14 samples.

Results

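The genes described here encode the receptors for glutamate and GABA, the main excitatory and inhibitory transmitters of the brain. They were chosen by gene symbol alone and number 45 of the 31507 genes in the expression table, 25 for glutamate and 20 for GABA. The glutamate genes comprised 4 AMPA, 7 NMDA, 5 kainate and 2 delta subunits and 7 metabotropic receptors. The GABA genes comprised 18 GABA-A subunits and 2 GABA-B subunits.

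Mouse brain tissue was compared between 3 groups: a sham operation, an intracerebral haemorrhage (ICH) made with autologous blood, and the same haemorrhage followed by acupuncture at the GV20 point for 7 days. Each group had input libraries of poly(A) RNA, 3 for sham, 2 for ICH and 2 for acupuncture. As many libraries were made after immunoprecipitation (IP) of RNA fragments carrying N6-methyladenosine (m6A), a methyl mark on internal adenosines of mRNA. The labels gave no strain, age, sex or dissected brain region, no time between haemorrhage and sampling for the ICH group, and no group given acupuncture without haemorrhage. Whether replicates came from separate animals was not stated, so the p-values reflect only how these samples vary, which may be technical.

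AMPA, NMDA and kainate receptors are cation channels assembled from several of these subunits, and AMPA receptors carry most fast excitatory transmission. Metabotropic glutamate receptors and the GABA-B receptor act through G proteins, while GABA-A receptors are chloride channels that carry fast inhibition. NMDA receptors are known for the calcium entry that injures neurons when glutamate accumulates, as it can around a haemorrhage. In poly(A) RNA, m6A is found mostly near stop codons and in 3′ untranslated regions, and it is known to affect mRNA stability and translation.

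Expression was given as FPKM, fragments per kilobase of transcript scaled to the size of the library, so read depth was unknown. The lowest FPKM total was 179810 (ICH replicate 2) and the highest 198472 (acupuncture replicate 1). ICH replicate 2 stood apart from the rest. It lay above all 6 other libraries for 19 of the 37 tested receptor genes (51.4%), against 27.3% of all 13666 tested genes, and below them for 3 (8.11%) against 33.3%. Between the ICH libraries the median absolute difference over all tested genes was 0.27 on the log2 scale, against 0.13 between the acupuncture libraries and 0.08 to 0.10 between sham libraries. Markers of neurons were present in every library, and Gabra6, the GABA-A subunit of cerebellar granule cells, was listed at 0 in 6 of 7 libraries. The RNA of marker genes of several cell types differed between the groups. The summed FPKM of 10 genes of striatal projection neurons was 96.6% to 104% of the sham mean in sham, 43.3% to 52.8% in ICH and 32.9% to 41.8% in acupuncture. That of 10 microglia and macrophage genes was 90.4% to 107%, 296% to 383% and 398% to 411%, and that of 9 astrocyte genes 95.7% to 104%, 178% to 189% and 168% to 207%. Gfap, the filament protein of reactive astrocytes, carried most of the astrocyte sum's increase, from 26.2 ± 2.79 FPKM (SD, n = 3) in sham to 366 ± 39.6 FPKM (SD, n = 2) in ICH, and 2 of the 9 astrocyte genes were called higher in ICH, with a list median of 0.24 on the log2 scale. That of 13 pan-neuronal genes was 98.5% to 103%, 90.5% to 108% and 84.2% to 90.7%. In bulk tissue, fewer cells of a type and less RNA per cell cannot be told apart, and the part of cell composition in the results below was not tested.

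Levels are comparable between genes because FPKM is scaled to gene length. In sham, Gabbr1, the GABA-B subunit that binds GABA, had the highest level at 94.3 ± 2.29 FPKM (SD, n = 3). It was followed by the AMPA subunit Gria1 at 56.1 ± 3.02 FPKM. Gabbr2, the GABA-B subunit that couples to G proteins, stood at 37.6 ± 2.86 FPKM, Grin1, the obligatory NMDA subunit, at 35.3 ± 2.72 FPKM and Gria2, the AMPA subunit that limits calcium entry, at 33.8 ± 1.66 FPKM. The sham libraries of Gabbr2, Grin1 and Gria2 overlapped, so their order is not resolved. Metabotropic genes were lower, with Grm5 at 18.2 ± 0.681 and Grm3 at 13.8 ± 1.89 FPKM. The highest of the kainate class was Grik5 (30.4 ± 1.89 FPKM), of the delta receptors Grid1 (9.17 ± 0.380 FPKM) and of the group III metabotropic receptors Grm7 (7.39 ± 0.220 FPKM).

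**Figure D1:**
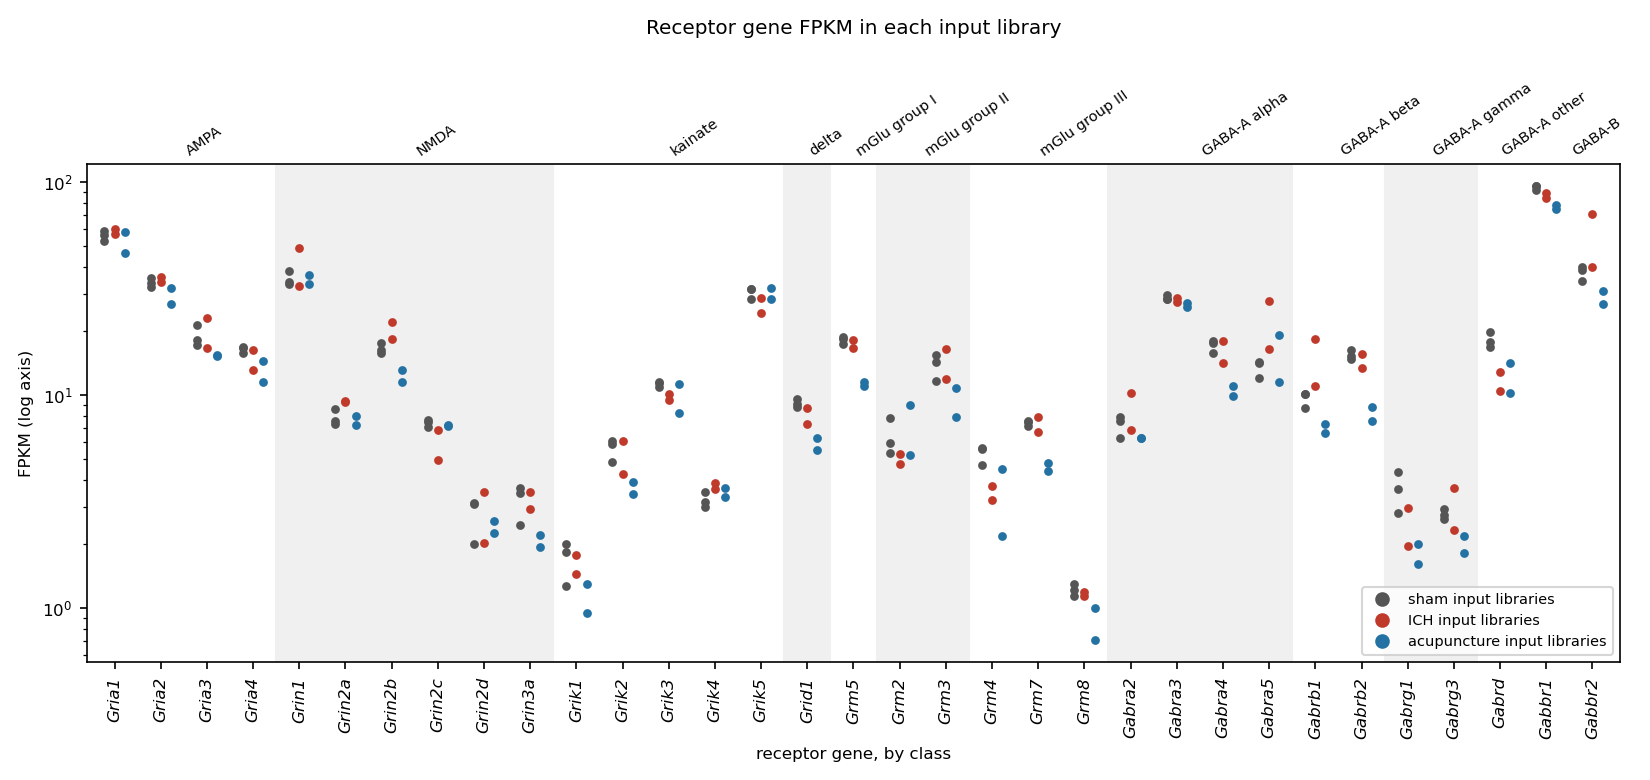
FPKM (log axis) of 33 of the 37 tested receptor genes in the 7 input libraries, ordered by class, with 1 point per library. The acupuncture points lie below the sham points for most genes, and ICH replicate 2 is the high point of its pair for Gabbr2 (71.1 FPKM) and Grin1 (48.8 FPKM).

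Of the 45 genes, 37 had a mean of at least 1 FPKM and were tested. Differences are on the scale of log2(FPKM + 1), which understates the change of low genes, and a call means a Benjamini-Hochberg adjusted p below 0.05 in limma, adjusted over all 13666 tested genes. The other 8 included Gabra6, Gabre, Gabrq, Gabrr1, Gabrr2, Gabrr3 and Grin3b. The rho genes Gabrr1 to Gabrr3, known from the retina, stayed between 0 and 0.301 FPKM in every library, and Grin3b, an NMDA subunit of motor neurons, between 0 and 0.0618 FPKM. Gabrq, the theta subunit, stood at 2.39, 0.368 and 2.17 FPKM in sham, 0.357 and 1.26 in ICH, and 0.0255 and 0.252 in acupuncture. Gabre, the epsilon subunit, stood at 1.195, 0.132 and 0.896 FPKM in sham, 0.0805 and 0.481 in ICH, and 0.0566 and 0.0415 in acupuncture. For both, sham replicate 2 lay with the haemorrhage libraries and away from the other sham libraries.

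The effect of haemorrhage on these transcripts was examined by setting ICH beside sham. No receptor gene was called in limma, against 5.68% of all tested genes. An unadjusted p under 0.05 was found for 3 of 37, against 21.5% of all tested genes. The median receptor difference was -0.02 on the log2 scale, beside -0.01 over all tested genes, with 17 genes above 0 and 20 below. Gabrd, the delta subunit of extrasynaptic GABA-A receptors (chromosome 4, 155384980 to 155398112, GRCm38), had the smallest p. It stood at 17.8, 19.9 and 16.8 FPKM in sham and at 12.9 and 10.4 FPKM in ICH. Both ICH libraries lay below all sham libraries, a difference of -0.60 (SE 0.16, limma adjusted p = 0.0864). Gabrb1, a beta subunit, stood at 10.2, 8.75 and 10.1 FPKM in sham and 11.1 and 18.5 FPKM in ICH, a difference of 0.52 (SE 0.20, limma adjusted p = 0.194). Gabra5, an alpha subunit of extrasynaptic receptors in the hippocampus, stood at 12.1, 14.4 and 14.2 FPKM in sham and 16.6 and 27.7 FPKM in ICH, a difference of 0.63 (SE 0.26, limma adjusted p = 0.23). For both genes the groups did not overlap, and most of the distance came from ICH replicate 2.

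The ICH libraries disagreed on the level of many receptors. Gabbr2 stood at 39.9 FPKM in ICH replicate 1 and 71.1 FPKM in replicate 2, beside 34.4, 39.9 and 38.6 FPKM in sham. Grin1 stood at 32.4 and 48.8 FPKM, beside 34.1, 38.4 and 33.3 FPKM in sham. For both genes, replicate 1 lay within or near the sham values and replicate 2 above them. With ICH replicate 1 left out, 9 receptor genes were called, 7 higher and 2 lower, while all genes called went from 776 to 5204. With ICH replicate 2 left out, none was called. In both fits the lone ICH library is assumed to vary like the other groups.

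Acupuncture against sham compared treated haemorrhage with sham-operated brain, and 5 of 37 receptor genes were called lower while none was called higher. Over all tested genes, 3.22% were called lower. The 5 were Gabrb2 and Gabra4, subunits of GABA-A receptors, Grm5 and Grm7, metabotropic glutamate receptors, and Grid1, a delta receptor. The median over the 37 receptor genes was -0.32, beside 0.04 over all tested genes, and 34 lay below 0. At an unadjusted p under 0.05, 17 receptor genes were lower (9.81% of all tested genes) and none was higher. Both acupuncture libraries lay below all 3 sham libraries for 26 receptor genes, against 23.4% of all tested genes. When libraries were scaled to the same median, 10 receptor genes were called lower. Over all genes 748 were called lower and 1001 higher, in place of 440 lower and 1158 higher. With quantile normalization, 8 receptor genes were called lower, with 721 of all genes called lower and 923 higher.

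Gabrb2, a beta subunit of synaptic GABA-A receptors (chromosome 11, 42419757 to 42629028), stood at 14.8, 15.3 and 16.2 FPKM in sham, 15.6 and 13.5 in ICH, and 7.55 and 8.78 in acupuncture. The acupuncture libraries lay apart from both other groups, and the mean was 47.1% below sham. The difference from sham was -0.85 (SE 0.11, limma adjusted p = 0.00345). Gabra4, the alpha subunit that often pairs with delta (chromosome 5, 71569749 to 71658308), stood at 15.8, 17.9 and 17.6 FPKM in sham, 14.2 and 18.0 in ICH, and 11.03 and 9.90 in acupuncture. Here too acupuncture overlapped with neither group, and the difference from sham was -0.66 (SE 0.13, limma adjusted p = 0.0175). Gabra4 overlaps at its start with Gabrb1 on the other strand (71658113 to 72149037), and the libraries were made to keep strand.

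Grm5, the group I receptor that raises calcium through phospholipase C (chromosome 7, 87584168 to 88134907), stood at 17.4, 18.4 and 18.75 FPKM in sham, 16.6 and 18.2 in ICH, and 11.6 and 11.1 in acupuncture. The mean was 37.7% below sham, with no overlap, a difference of -0.64 (SE 0.09, limma adjusted p = 0.00525). Grm7, the presynaptic group III receptor that restrains transmitter release (chromosome 6, 110645581 to 111567230), stood at 7.14, 7.51 and 7.53 FPKM in sham, 6.73 and 7.92 in ICH, and 4.80 and 4.39 in acupuncture. Its groups did not overlap either, and the difference was -0.59 (SE 0.10, limma adjusted p = 0.0108). Grid1, which organises synapses through cerebellins and neurexins (chromosome 14, 34820108 to 35583379), stood at 9.10, 8.84 and 9.585 FPKM in sham, 8.68 and 7.345 in ICH, and 6.27 and 5.52 in acupuncture. For Grid1, ICH lay between sham and acupuncture without overlap, and acupuncture differed from sham by -0.56 (SE 0.11, limma adjusted p = 0.0164).

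The calls rested on few libraries. Leaving out acupuncture replicate 1 or sham replicate 3 left 2 receptor genes called, and leaving out acupuncture replicate 2 left 3. The count rose when either ICH library was left out, and it rose to 15, all lower, when only the compared groups were fitted. All genes called also rose in the fit of the compared groups, from 1598 to the count given below. In those fits the spread between the ICH libraries no longer enters the estimate of error. The striatal marker genes moved in the same libraries, with 10 of 10 called lower in acupuncture against sham, where 3.22% of all tested genes were. In ICH against sham 7 of 10 were called lower, against 0.724% of all tested genes, and all 10 lay below 0. None of these genes stood at 0 FPKM. Other marker lists differed in how they moved in acupuncture against sham. Of 11 excitatory neuron markers 1 was called lower and 8 lay above 0, with a median of 0.13. Of 11 inhibitory neuron markers none was called and 6 lay below 0. Of 13 pan-neuronal markers 1 was called lower and 11 lay below 0. In acupuncture the excitatory sum was 114% and 92.5% of the sham mean, beside 88.4% to 120% in the sham libraries. The thalamus and hippocampus sum was 65.9% and 104% in acupuncture, beside 77.7% to 116% in sham. Calb2 alone stood at 6.42 and 54.8 FPKM in acupuncture replicates 1 and 2, within sums of 59.6 and 94.3 FPKM. Of 9 tested thalamus and hippocampus neuron markers 5 were called lower and 7 lay below 0. Of 10 oligodendrocyte markers 2 were called lower and all 10 lay below 0. Of 8 endothelial markers 5 were called higher, against 8.47% of all tested genes, and all 8 lay above 0. The oligodendrocyte sum was 71.6% and 67.4% of the sham mean in ICH and 68.2% and 44.6% in acupuncture, and the endothelial sum 144% and 119% in ICH and 213% and 197% in acupuncture. The part of those cells in the receptor values was not tested.

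**Figure D2:**
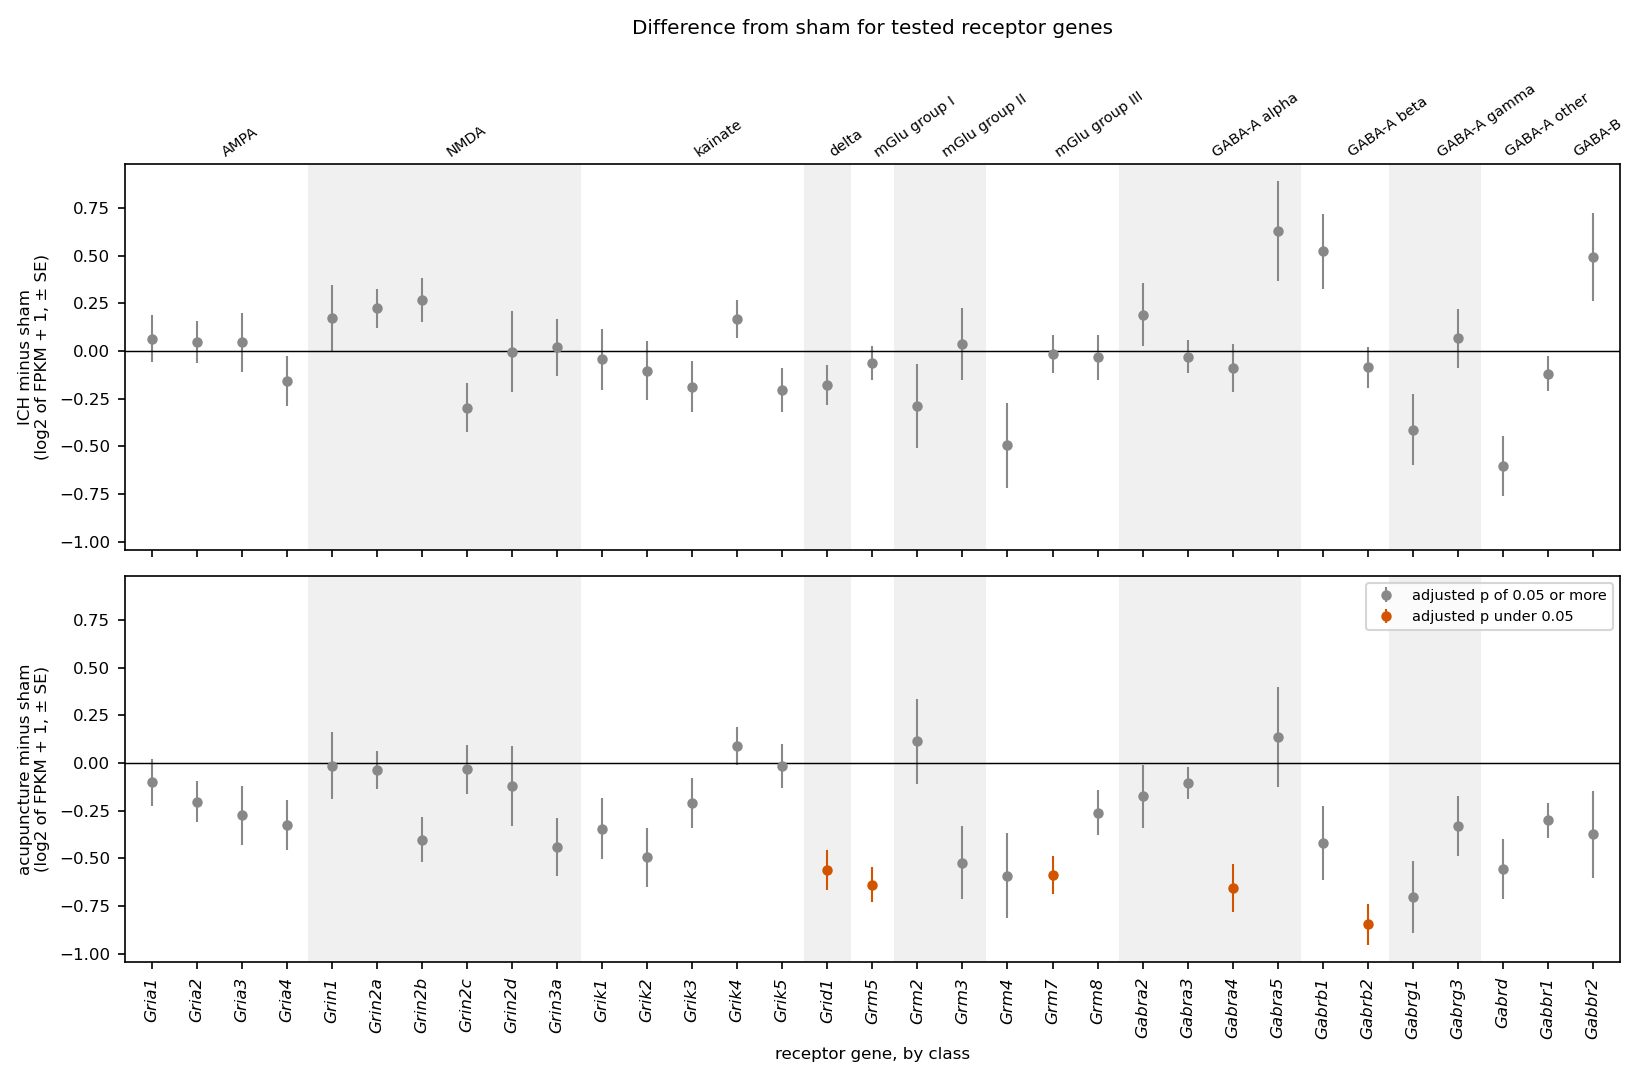
Difference from sham on the log2(FPKM + 1) scale, with its standard error, for 33 of the 37 tested receptor genes in ICH (top, n = 2 against 3) and acupuncture (bottom, n = 2 against 3). The 5 orange points are the called genes, from Grid1 at -0.56 to Gabrb2 at -0.85.

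Several further receptors had large differences that missed the threshold. Gabrg1, a gamma subunit, stood at 4.35, 2.78 and 3.63 FPKM in sham, 1.95 and 2.96 in ICH and 1.61 and 2.00 in acupuncture, a difference of -0.70 between acupuncture and sham (SE 0.19, limma adjusted p = 0.0607). Grin2b, the GluN2 subunit of the young and extrasynaptic NMDA receptor, stood at 15.8, 17.6 and 16.4 FPKM in sham, 18.3 and 22.2 in ICH and 11.5 and 13.1 in acupuncture, a difference of -0.40 (SE 0.12, limma adjusted p = 0.0748). For Grin2b both acupuncture libraries lay below both of the other groups, while Gabrg1 overlapped between acupuncture and ICH. Other values between acupuncture and sham were -0.59 for Grm4 (limma adjusted p = 0.154), -0.52 for Grm3 (limma adjusted p = 0.14), -0.49 for Grik2 (limma adjusted p = 0.0943), -0.44 for Grin3a (limma adjusted p = 0.122) and -0.32 for Gria4 (limma adjusted p = 0.182). The smallest differences were found for Grin1 (-0.01), Grik5 (-0.01), Grin2c (-0.03) and Grin2a (-0.04). Of the 37 genes, Grik4, Grm2 and Gabra5 lay above 0, at 0.09, 0.11 and 0.13.

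For Gabbr1, Gria2, Gria1 and Grik1 the difference between acupuncture and sham also missed the threshold. Gabbr1 stood at 95.5, 91.6 and 95.6 FPKM in sham, 84.2 and 89.4 in ICH and 78.1 and 74.6 in acupuncture, a difference of -0.30 between acupuncture and sham (SE 0.09, limma adjusted p = 0.0918). Its 3 groups did not overlap, in the order sham, ICH, acupuncture. Gria2 stood at 33.5, 35.6 and 32.4 FPKM in sham, 34.1 and 35.9 in ICH and 26.7 and 32.0 in acupuncture (difference -0.20, SE 0.11, limma adjusted p = 0.31). Gria1 stood at 56.5, 52.8 and 58.8 FPKM in sham, 60.2 and 57.1 in ICH and 46.5 and 58.3 in acupuncture, where the 2 acupuncture libraries lay on either side of the lowest sham value. Grik1, a kainate subunit, stood at 2.01, 1.27 and 1.84 FPKM in sham, 1.45 and 1.78 in ICH and 0.944 and 1.30 in acupuncture, with overlap between acupuncture and sham.

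Acupuncture against ICH set haemorrhage with the treatment beside haemorrhage without it. The sampling time of the ICH group was not given, so treatment and time after haemorrhage cannot be told apart. No receptor gene was called in limma, against 0.0366% of all tested genes (5 genes, all higher). At an unadjusted p under 0.05, 14 receptor genes were lower, against 8.21% of all tested genes, and none was higher. The median receptor difference was -0.32, beside 0.05 over all tested genes, and 33 of 37 lay below 0. For 24 receptor genes both acupuncture libraries lay below both ICH libraries, against 20.7% of all tested genes. Gabrb2 had the smallest p, with a difference of -0.76 (SE 0.12, limma adjusted p = 0.111), followed by Grm5 at -0.58 (SE 0.10, limma adjusted p = 0.134), Grin2b at -0.67 and Grm7 at -0.57 (both limma adjusted p = 0.158). Gabrb1, from 11.1 and 18.5 FPKM in ICH to 7.29 and 6.65 in acupuncture, differed most, by -0.94 (SE 0.22, limma adjusted p = 0.182). Gabbr2 differed by -0.87 (SE 0.25, limma adjusted p = 0.195). Grin2c, at 6.85 and 4.95 FPKM in ICH and 7.16 and 7.26 in acupuncture, was the 1 gene with acupuncture above ICH without overlap, by 0.26 (SE 0.14, limma adjusted p = 0.302). This comparison turned on 1 library: without ICH replicate 1, 17 receptor genes were called, 16 lower and 1 higher, while all genes called went from 5 to 5098. Without ICH replicate 2, none was called.

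With ICH and acupuncture joined as 4 haemorrhage libraries against 3 sham libraries, 1 receptor gene was called, Gabrd, against 1.51% of all tested genes called lower. Its haemorrhage values of 12.9, 10.4, 14.1 and 10.2 FPKM all lay below the sham values of 17.8, 19.9 and 16.8 FPKM. The difference was -0.58 (SE 0.13, limma adjusted p = 0.0345). Between ICH and acupuncture the Gabrd libraries overlapped, with a difference of 0.05 (SE 0.17, limma adjusted p = 0.874). The call was lost without any 1 of the sham libraries, without ICH replicate 1 and without acupuncture replicate 2, at limma adjusted p between 0.0557 and 0.139. Without ICH replicate 2, 6 receptor genes were called, all lower, while all genes called lower went from 206 to 590.

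The receptor classes differed in how far their members lay from sham. Members are not replicates, so the classes are described without a test. The 7 metabotropic glutamate genes had a median of -0.59 in acupuncture against sham, the 16 tested ionotropic glutamate genes -0.21 and the 14 tested GABA genes -0.35. Within the ionotropic genes the median was -0.24 for AMPA, -0.21 for kainate and -0.08 for NMDA. Within the GABA-A genes it was -0.42 for beta, -0.33 for gamma and -0.18 for alpha subunits, and for GABA-B it was -0.34. In ICH against sham the same medians were -0.06 for metabotropic, 0.01 for ionotropic glutamate and 0.04 for GABA genes.

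Summed over a class, the FPKM gave the same picture library by library. The metabotropic sum was 93.1%, 103% and 104% of the sham mean in the sham libraries, 85.3% and 98.7% in ICH, and 64.3% and 72.8% in acupuncture. The ionotropic glutamate sum was 99.2%, 102% and 99.0% in sham, 97.1% and 107% in ICH, and 83.9% and 93.6% in acupuncture. The GABA sum was 98.0%, 102% and 100% in sham, 93.9% and 123% in ICH, and 78.7% and 78.2% in acupuncture. In each of the 3 sums acupuncture lay below every sham library, and the distance was largest for metabotropic receptors. The kainate sum was nearly the same in both haemorrhage groups, at 91.8% and 87.0% in ICH and 92.2% and 92.1% in acupuncture. Its members did not move alike, and Grik5 made up 53.3% to 66.3% of the sum. The acupuncture mean over the ICH mean was 0.696 for Grik1, 0.708 for Grik2, 0.994 for Grik3, 0.933 for Grik4 and 1.14 for Grik5. The beta subunit sum differed widely within ICH, at 105% and 152%.

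**Figure D3:**
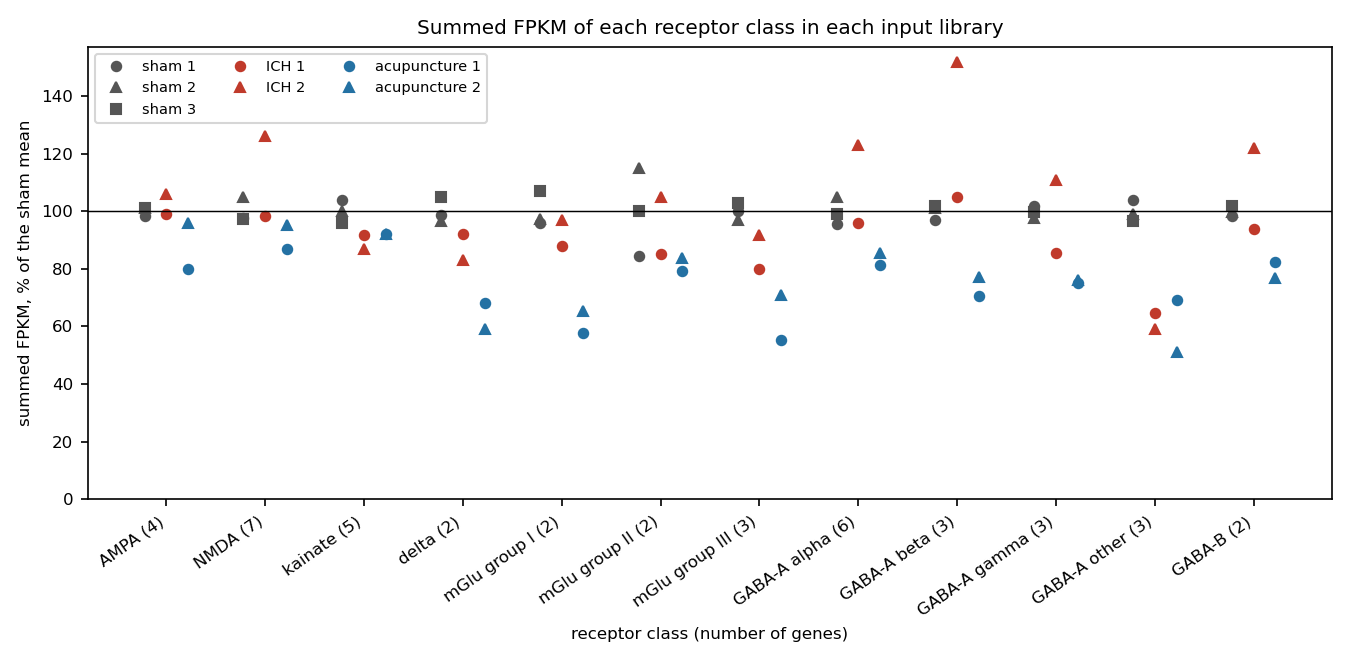
Summed FPKM of each receptor class in each input library, as a percentage of the mean of the 3 sham libraries (line at 100). Group III metabotropic receptors stand at 55.2% and 71.1% in acupuncture, while AMPA receptors stand at 80.0% and 96.0%.

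The mix of subunits within a receptor also varied. Among the GluN2 subunits, which set the kinetics of NMDA receptors, Grin2b made up 46.8%, 49.1% and 47.9% of the summed FPKM in sham, 50.3% and 55.4% in ICH, and 40.9% and 42.4% in acupuncture. The 3 groups did not overlap, with ICH above and acupuncture below sham. Grin2c, at 22.2%, 21.3% and 20.8% in sham, took the opposite order, with 18.8% and 12.4% in ICH and 25.4% and 23.5% in acupuncture. Gabrb2 made up 25.7%, 25.5% and 26.9% of the beta subunits in sham, 25.1% and 14.9% in ICH, and 18.0% and 19.1% in acupuncture, so that it fell more than its class as a whole in acupuncture. Gabra4 made up 15.4% ± 0.555 (SD, n = 3) of the alpha subunits in sham, 13.4% and 13.2% in ICH, and 12.3% and 10.4% in acupuncture, again without overlap between the groups. Gabbr2 made up 26.5% to 30.3% of GABA-B in sham and 26.5% and 28.2% in acupuncture, but 32.1% and 44.3% in ICH. Gria2 stayed at 25.7% to 28.1% of the AMPA subunits in all 7 libraries. With 2 libraries against 3, an exact permutation test could not reach p = 0.05, so no test was made.

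**Figure D4:**
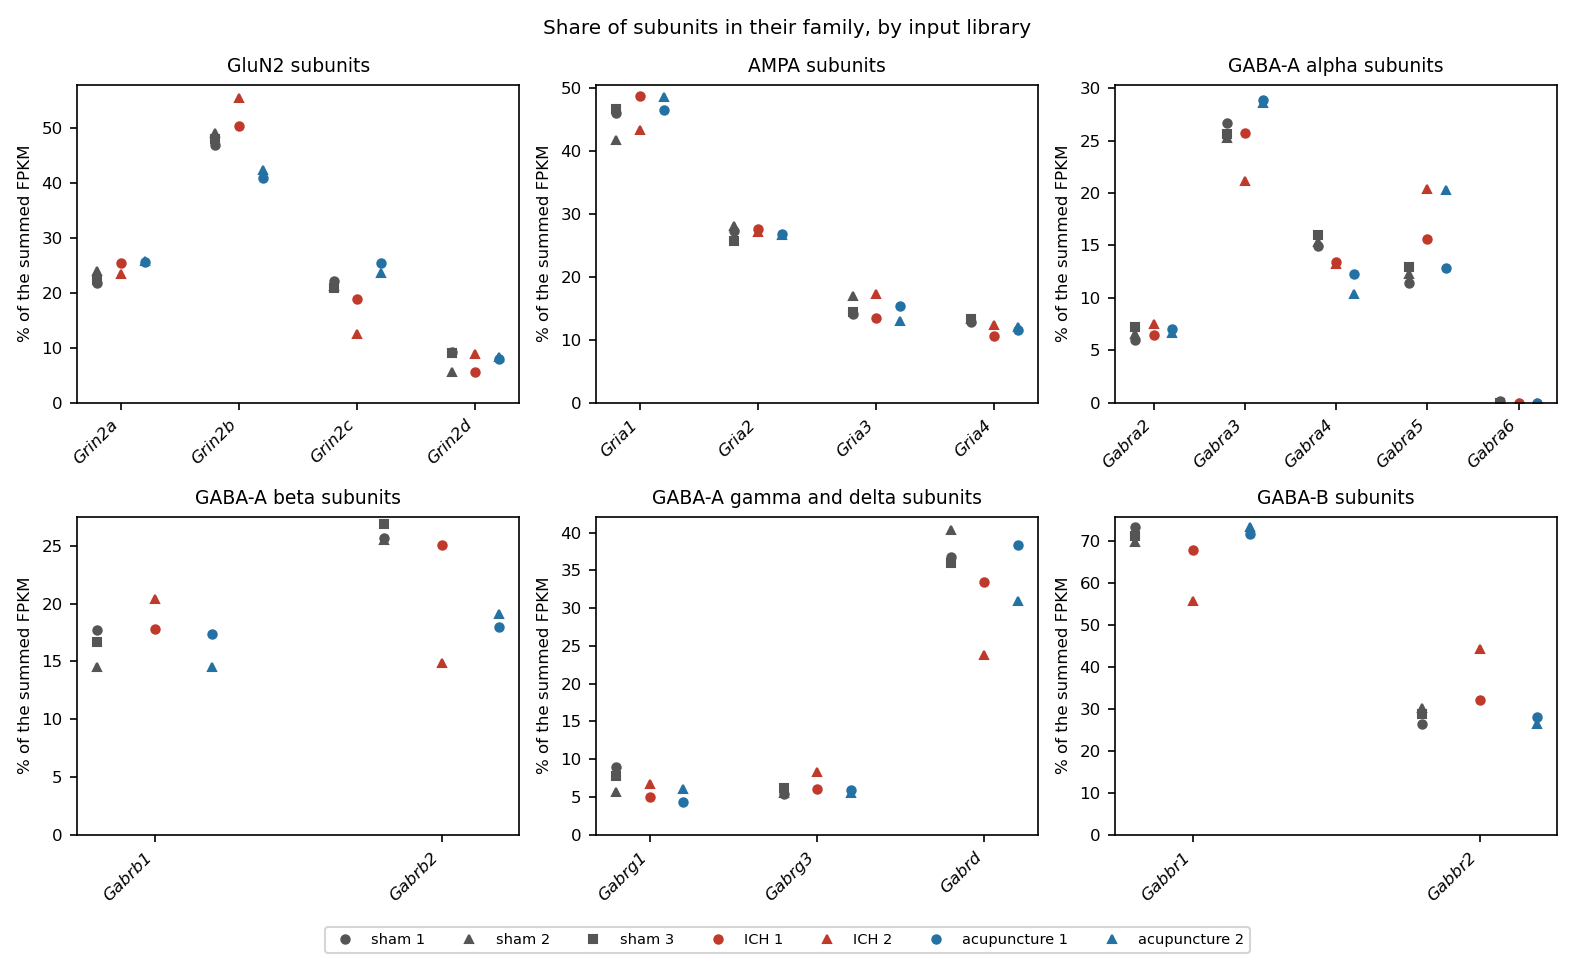
Share of subunits in the summed FPKM of its family, with 1 point per input library for sham (grey), ICH (red) and acupuncture (blue). Grin2b separates the groups at 46.8% to 49.1%, 50.3% to 55.4% and 40.9% to 42.4%, while Gria2 stays between 25.7% and 28.1%.

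Genes that work with the receptors were followed in 4 lists. Neither ICH beside sham nor acupuncture beside ICH gave a call among them in limma. The lists, in the order below, held 17, 18, 18 and 6 tested genes. At an unadjusted p under 0.05, ICH beside sham had 4, 4, 4 and 1 of them, against 21.5% of all tested genes. Acupuncture beside ICH had 3, 6, 4 and 2, against 20.2% of all tested genes. In acupuncture against sham, 3.22% of all tested genes were called lower and 8.47% higher. Of 17 tested genes for transmitter synthesis, vesicle loading and uptake, 2 were called lower and 1 higher. Where 1 of 18 genes was called in a list, that share is near the one over all genes. Slc17a6, the vesicular glutamate transporter of subcortical neurons, stood at 14.5, 8.02 and 15.4 FPKM in sham, 6.39 and 9.45 in ICH and 3.29 and 2.63 in acupuncture (difference -1.74, SE 0.28, limma adjusted p = 0.00915). Abat, which breaks down GABA, fell by 0.55 on the log2 scale (limma adjusted p = 0.0421), and Slc1a3, the glutamate transporter of astrocytes, rose by 0.42 (limma adjusted p = 0.0415) from 43.5 ± 1.89 FPKM (SD, n = 3) to 58.5 ± 2.71 FPKM (SD, n = 2). Of 18 auxiliary subunits 1 was called lower, Kctd16, a partner of GABA-B receptors (-0.58, SE 0.10, limma adjusted p = 0.0137). Of 18 scaffold proteins 1 was called lower, Shank3, which links glutamate receptors to the cytoskeleton (-0.76, SE 0.11, limma adjusted p = 0.00606). Its level went from 22.9 ± 0.889 to 13.1 ± 1.78 FPKM. Of 6 tested partners of delta receptors none was called (none at an unadjusted p under 0.05), and all 6 lay below 0. With both haemorrhage groups joined, Shank3 fell (-0.58, limma adjusted p = 0.0412), as did Slc32a1, the vesicular GABA transporter (-0.60, SE 0.15, limma adjusted p = 0.0453). The list medians in acupuncture against sham were -0.21, -0.29, -0.19 and -0.35, in the order given, beside 0.04 over all tested genes.

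Peaks of m6A were given as 1 list per group, with the authors' log2 of IP over input, so replicates could not be compared. The sham list held 174 receptor peaks of 48251, the ICH list 202 of 54754 and the acupuncture list 190 of 50105. Every tested receptor gene, 37 of 37, had a peak in each list, against 93.6%, 94.3% and 94.0% of all genes of at least 1 FPKM. In sham, 103 of the receptor peaks (59.2%) were annotated to 3′ untranslated regions, 40 to exons, 27 (15.5%) to 5′ untranslated regions and 4 (2.3%) to introns, while over all peaks the shares were 54.5%, 20.1%, 11.6% and 4.64%. Of the sham receptor peaks 81.0% overlapped an ICH peak, and of the ICH receptor peaks 73.8% overlapped a sham peak. The overlap over all peaks was not computed, so these shares do not set receptor peaks apart from the lists as a whole. The spans include introns, so a long span does not mean a long peak in the mRNA.

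In the authors' sham list the median log2 IP over input was 1.45 for peaks of NMDA genes, 1.35 for delta and 1.23 for metabotropic genes, 0.94 for kainate and 0.93 for AMPA genes, 0.88 for GABA-B and 0.83 for GABA-A, beside 1.07 for all peaks. This order did not hold in the authors' ICH list, where GABA-B stood at 1.39 and NMDA at 1.19, beside 1.24 for all peaks. The highest value in sham was 3.97 for Grin3a, an NMDA subunit (chromosome 4, 49770309 to 49845744), followed by 3.89 for the kainate subunit Grik4 (chromosome 9, 42520210 to 42541972). High values were also given as 3.45 for Grm2 (chromosome 9, 106643170 to 106643719) and 3.01 for Gria4 (chromosome 9, 4418771 to 4456028). Other genes reached 2.78 for Grm8, 2.14 for Gabre, 2.03 for Gabra5, 2.00 for Gabbr2 and 1.58 for Gabrg1. Gabre lay below the expression filter, at a mean of 0.412 FPKM, so its value stands over little input. The highest peak of a gene could be close across the authors' lists, as for Grin3a at 3.97, 3.79 and 3.83 in sham, ICH and acupuncture, Grik4 at 3.89, 3.99 and 3.84, and Grm5 at 3.32, 3.38 and 3.31. It differed for Grin2c, at 2.11, 2.81 and 3.62, and for Grm2, at 3.45, 3.74 and 2.64.

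The differential tables hold peaks with a p under 0.05 as given by the authors, and each value below is from the authors' deposited table. In ICH against sham, 100 receptor peaks of 36 genes were listed, 64 higher and 36 lower. The receptor share that was higher, 64.0%, compares with 78.7% of all peaks listed in the authors' deposited table. By class, 17 of 22 AMPA peaks and 18 of 23 GABA-A peaks were higher, against 10 of 20 NMDA and 7 of 17 metabotropic peaks. In acupuncture against ICH, 24 of 83 receptor peaks were higher (28.9%), beside 18.6% of all listed peaks in the authors' deposited table. In acupuncture against sham, 36 of 69 were higher, beside 58.3% of all listed peaks in the authors' deposited table, with 9 of 12 AMPA and 2 of 11 NMDA peaks among them. The ICH columns enter both of the first comparisons, so their opposite directions are not independent.

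Grin2d, an NMDA subunit of interneurons, had the most negative receptor peak in ICH against sham. In the authors' deposited table, its 3′ untranslated peak (chromosome 7, 45831883 to 45832132) had a log2 IP over input of 2.02 in sham and 0.36 in ICH, a difference of -1.67 (authors' adjusted p = 2.76e-29). A neighbouring peak (45832208 to 45833557) went from 1.74 to 0.62 (authors' deposited table, -1.12), while its transcript stood at 3.11, 2.01 and 3.09 FPKM in sham and 2.02 and 3.51 in ICH. The FPKM of the groups overlapped. Lower values in the authors' deposited table were also given for Grm7 (-1.47, authors' adjusted p = 0.0924), Gabra4 (-0.97) and Grin2b (-0.87).

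Gabrd had the smallest adjusted p among the 6 receptor peaks that were most raised in ICH. In the authors' deposited table, its 3′ untranslated peak (chromosome 4, 155384980 to 155385454) went from 1.16 in sham to 2.36 in ICH, a difference of 1.21 (authors' adjusted p = 7.63e-39). In acupuncture against sham the authors' deposited table gives 1.07 in sham and 1.87 in acupuncture for the same site. The FPKM of the gene was lower in both haemorrhage groups, as given above. Other higher values in ICH in the authors' deposited table were 1.39 for Gabra2 and 1.14 for Grin2a.

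Acupuncture was set beside each of the other groups in the same way. Against ICH, the authors' deposited table lists Grik1 (-2.25, authors' adjusted p = 0.0173), Grin2d (-1.57, authors' adjusted p = 0.0879), Gabrg3 (-1.54, authors' adjusted p = 0.0655), Grm2 (-1.36 and -0.85, authors' adjusted p = 0.0486 and 0.034) and Grin2b (-0.92, authors' adjusted p = 0.112) as lower. It lists as higher, in the authors' deposited table, Gabrg3 at another site (1.44), Grm8 (0.78) and Grin2d (0.76), and, at an authors' adjusted p of 0.057, Grin3b (0.92). Grin3b lay below the expression filter, at 0 and 0.000731 FPKM in the acupuncture inputs, so its value stands over almost no input. Against sham, the authors' deposited table gives the most negative value for Grik2 (chromosome 10, 49098883 to 49099132), from 1.32 to -1.34 (-2.66, authors' adjusted p = 9.79e-08). It is followed in the authors' deposited table by Gabrg1 (-1.58 and -1.15), Grm2 (-1.12), Grin2d (-1.03) and Gabra4 (-0.98), of which Grin2d passed an authors' adjusted p of 0.05. Of the 6 highest differences in the authors' deposited table, 4 were peaks of Grm4, between 0.88 and 1.29, beside a short 5′ peak of Gabrd (1.12, authors' adjusted p = 0.147).

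The peaks of the 5 genes called in acupuncture against sham went in both directions. For Gabrb2, the 3′ untranslated peak at 42628294 to 42628693 had a value of 0.42 in sham and 1.14 in ICH in the authors' deposited table (authors' adjusted p = 4e-16), and it stood at 0.89 in acupuncture against 0.46 in sham (authors' adjusted p = 9.38e-05). For Grid1, 3 of 4 listed peaks were higher in ICH than in sham in the authors' deposited table, with 0.55 and 1.38 at 35520796 to 35562530, and all 3 listed in acupuncture against ICH were lower, with 1.14 and 0.30 at that site. For Grm5, the strong peak in its last coding exons was lower by 0.26 in ICH and by 0.13 in acupuncture, each against sham, from 3.33 and 3.35 in the authors' deposited table. Another Grm5 span (87809491 to 88026432) was higher in ICH by 0.70 and, with nearly the same ends, in acupuncture by 0.83, each against sham in the authors' deposited table. For Grm7, the 5′ peak went from 1.84 in sham to 1.32 in acupuncture in the authors' deposited table (authors' adjusted p = 0.0419). For Gabra4, the last 600 bases of the 3′ untranslated region went from 1.18 in sham to 1.87 in ICH in the authors' deposited table, while the stretch at 71570999 to 71571348 went the other way, from 1.04 to 0.07. Both Gabra4 sites had an authors' adjusted p under 0.05, so peaks of 1 gene differed in opposite directions.

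The GABA-B subunits also went apart. All 4 listed Gabbr1 peaks were higher in ICH than in sham in the authors' deposited table, by 0.36 to 0.51, and both listed Gabbr2 peaks were lower, by 0.41 and 0.69. The longer Gabbr2 peak (chromosome 4, 46663855 to 46667566) stood at 2.05 in sham and 1.35 in ICH in the authors' deposited table (authors' adjusted p = 3.06e-101), and the Gabbr1 3′ peak (chromosome 17, 37074054 to 37075067) at 1.42 and 1.78 (authors' adjusted p = 1.1e-18). Among AMPA genes, the 5′ peak of Gria1 (chromosome 11, 57011387 to 57176591) went from 1.31 to 1.86 in the authors' deposited table, while the long 3′ peak of Gria3 (chromosome X, 41669542 to 41676842) went from 1.47 to 0.90. Grin1 had 3 listed coding peaks, each higher in ICH by 0.42 to 0.54 in the authors' deposited table, and 1 intronic peak (25312203 to 25312652), which was lower by 0.68 (authors' adjusted p = 0.0243).

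**Figure D5:**
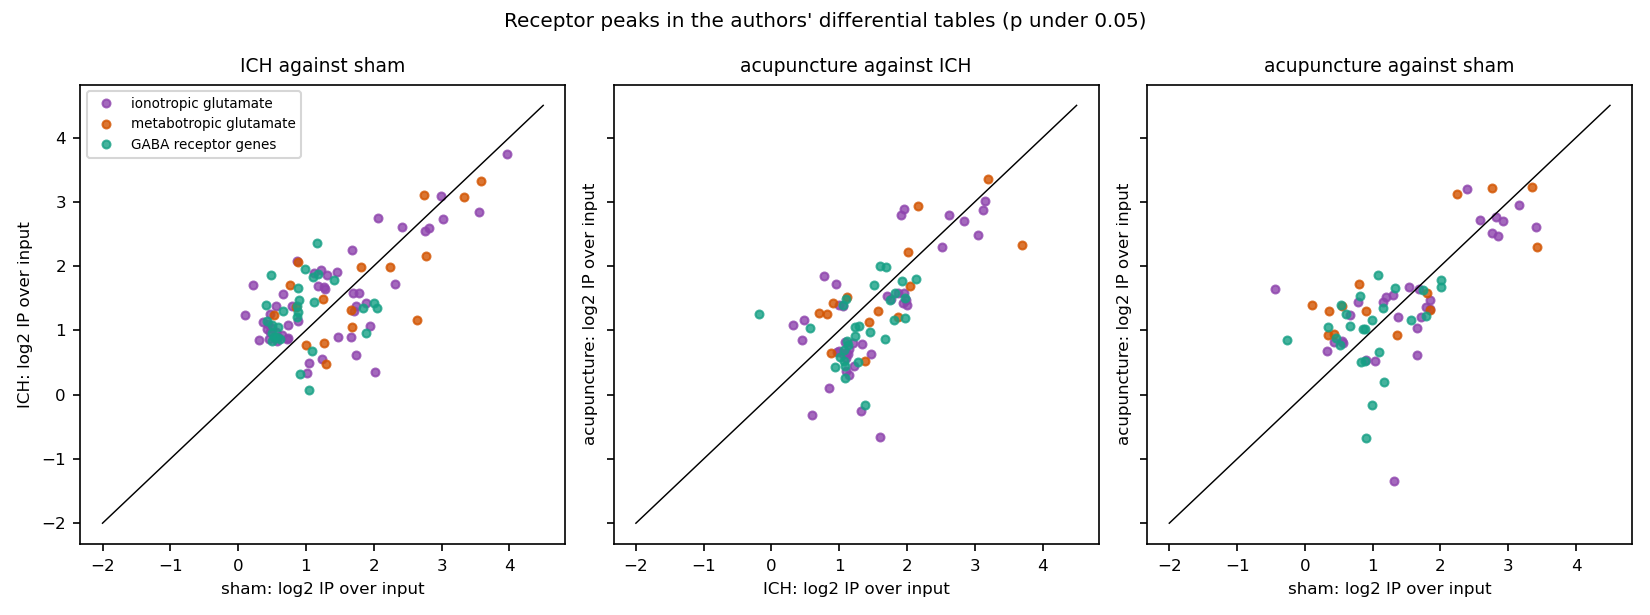
Log2 IP over input of receptor peaks with p under 0.05 in the authors' deposited differential tables, 1 group on each axis, with the line of equal values. Of 100 peaks, 64 lie above the line in ICH against sham (left), 24 of 83 in acupuncture against ICH (middle) and 36 of 69 in acupuncture against sham (right).

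For 30 of the 45 genes the RefSeq table of start sites (GRCm38.p6) gives the first 50 transcribed bases. The core of the m6A consensus, GGAC, was searched there on the transcribed strand. It occurred in 7 of 37 receptor windows and in 18.9% of all 32851 windows. In Gria2 and Gabrb2 a peak at the 5′ end covers the core in some lists. The 21 bases centred on the A of the core are shown because peak extent there differed between the lists. Capitals mark GGAC.
Gria2: cgcgcccgGGACtgcctgccc
Gabrb2: agaaaccaGGACcccgaggtt

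The Gria2 stretch lies on the minus strand at chr3:80802803-80802823. The sham peak (80802638 to 80802835) and the acupuncture peak (80802613 to 80802835) cover it, at log2 values of 0.78 and 0.84 in the authors' lists, and the ICH peak (80802388 to 80802812, 1.03) ends inside it. Over 80802488 to 80802835 the authors' deposited table gives 0.37 in sham and 1.13 in ICH (authors' adjusted p = 7.07e-24), and 0.63 in acupuncture against 1.13 in ICH (authors' adjusted p = 8.22e-08). The Gabrb2 stretch lies on the plus strand at chr11:42420451-42420471. The peak of ICH (1.47) and of acupuncture (1.12) runs from 42419757 to 42421372 and covers it, while the sham peak (0.68) ends before it, at 42420006. For the longer interval the authors' deposited table gives 0.66 in sham and 1.30 in ICH (authors' adjusted p = 0.00288), and 1.07 in acupuncture against 0.66 in sham (authors' adjusted p = 0.103). A match is a description of the letters and does not place a methylated base.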

How the data were processed

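Mouse brain RNA was sequenced as 7 input and 7 m6A IP libraries. Gene levels were deposited by the authors as FPKM, per the file headers; 825 of 31507 genes were listed at 0 in all input libraries. The submitters' processing notes list the tools fastp, HISAT2, StringTie, HOMER and edgeR, and human builds, although the files hold mouse genes. Of 25299 genes matched by symbol, 96.27% lay within 1000 bp of RefSeq GRCm38.p6 coordinates. Columns headed control and EA were taken as sham and acupuncture, the groups left over. A further 2 columns, headed as a further ICH and a further EA library, match no sample and were not used here, and whether those libraries entered the peak tables is unknown. The peak tables give log2 IP over input, p-values and adjusted p-values as deposited by the authors; the caller and any pooling were not given in the sources used here.

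Members, gene lists and tests were chosen with earlier results of these data known. Genes averaging 1 FPKM or more were tested on log2(FPKM + 1) in limma 3.58.1 (R 4.3.3), with a mean per group and a variance trend, two-sided, with Benjamini-Hochberg adjustment. In another fit the 4 haemorrhage libraries formed 1 group. Genes named are members called in any comparison, the highest of each class, those with the smallest p, called partner genes and, per differential table, up to 6 receptor peaks per direction; the levels of Gria1, Grin2c and Grin2a and the peaks of genes set beside each other were chosen after their values were seen. Peak starts, which count from 0 in the files, are given from 1. Peaks overlapped at 1 shared bp. Some members count in the totals but are not reported here by name. The fit was tested on simulated data. Alternatives changed the pseudocount, filter, scaling, variance model, libraries, replicate block, peak thresholds and overlap. Python 3.11.15, numpy 2.4.6, pandas 2.3.3 and matplotlib 3.10.9 were used.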

Additional observations from a re-analysis of the deposited data

How the results depend on the processing

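Few libraries and the lack of read counts limit these results. The 0 receptor genes called against sham in ICH, and against ICH in acupuncture, ranged over leaving out 1 library from 0 to 9 and from 0 to 17, the high ends being without ICH replicate 1. The 5 called in acupuncture against sham ranged from 2 to 15, and the 1 called with both haemorrhage groups joined from 0 to 6. In acupuncture against sham the count was 8 with quantile normalization, 10 with the same median in every library and 15 with the compared groups only. It was 5 with a pseudocount of 0.1, with no filter, with a minimum of 5 FPKM and with no variance trend. Gabrd was not called without a filter, which left 0 for the joined groups.

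Same-numbered libraries had correlations of -0.015 to 0.094 in their deviations from group means. In a group of 2 libraries these deviations mirror each other, so weak values cannot show whether the numbers pair the samples. With the replicate number as a block, 1 receptor gene was called in acupuncture against sham and 0 with the groups joined, while all genes called were 351 for ICH against sham, 3 for acupuncture against ICH, 750 in acupuncture against sham and 463 with the groups joined. The block changed no other count of receptor genes.

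All genes called were 776, 5, 1598 and 1123 in the same order of comparisons. Over leaving out 1 library they ranged from 392 to 5204, 2 to 5098, 775 to 3197 and 591 to 2104. With a minimum of 5 FPKM they were 250 in ICH against sham, 707 in acupuncture against sham and 383 with the groups joined, where fewer genes were tested. With the compared groups only they were 2 in acupuncture against ICH and 3207 in acupuncture against sham. Except where stated, the cause was not tested.

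At an adjusted p under 0.05 and a log2 of at least 2, receptor genes with a peak went from 41, 41 and 42 to 21, 24 and 20 in sham, ICH and acupuncture. Under that rule 23 sham peaks overlapped ICH peaks and 23 acupuncture peaks, 22 ICH peaks overlapped sham and 24 acupuncture peaks, and 22 acupuncture peaks overlapped sham and 24 ICH peaks. With spans of at most 1000 bp these overlaps were 65, 67, 62, 74, 68 and 77, in place of 141, 140, 149, 159, 153 and 160. With a difference of at least 1 on the log2 scale, the receptor peaks of the authors' deposited tables came to 6 higher and 3 lower for ICH against sham, 2 and 4 for acupuncture against ICH, and 3 and 5 for acupuncture against sham. At the authors' adjusted p under 0.05, 20 of the 33 lower peaks in acupuncture against sham were left.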

Other observations

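Receptor genes below the expression filter also held m6A peaks in the authors' lists. Grin3b, at no more than 0.0618 FPKM in any input library, had 3 peaks in sham, 2 in ICH and 3 in acupuncture. Their highest log2 IP over input was 3.00, 3.98 and 3.11. The acupuncture inputs of Grin3b stood at 0 and 0.000731 FPKM, so such ratios stand over almost no input and their size is uncertain. Gabrq had 2, 3 and 2 peaks, and Gabre had 1 peak in sham and 1 in acupuncture. Gabrr2 had 1 peak in ICH and 1 in acupuncture. Gabra6, Gabrr1 and Gabrr3 had none in any list.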
